A study of Mus musculus with 16 samples.

Results

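The ileum of male LKO mice was compared with that of female LKO mice, gene by gene, on chromosomes 1 to 19. LKO mice (Bcl6LKO) carry loxP-flanked copies of Bcl6 (Bcl6 fl/fl) and Cre recombinase driven by the albumin promoter (Alb-Cre), so that Bcl6 is deleted in hepatocytes and remains intact in the gut. All 8 animals of the comparison share that genotype and the C57BL/6 strain and differ by sex, with 4 males and 4 females, each giving 1 library. They are 8 of the 16 libraries of the series, whose other 8 come from 4 male and 4 female Bcl6 fl/fl mice without Cre (WT). The 4 libraries whose column names contain MLKO were set against the 4 whose names contain FLKO, and 23791 of the 24940 genes in the table were autosomal. Of these, 19409 had at least 1 count in the 8 LKO libraries, and 14771 had enough counts to be tested. Ages are not given in the sources used here, nor is it stated which of the animals had been fasted before collection. The samples are pieces of whole ileal wall taken just before the cecum, so they hold muscle, nerve, fat and lymphoid tissue beside epithelium, and in such bulk RNA fewer cells of a type and less RNA per cell cannot be told apart. That the replicates are separate animals rests on the sample titles, each of which has its own number.

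BCL6 is a transcriptional repressor that competes with STAT5 at many genes and helps set the sex-biased expression program of the liver, downstream of the sex-specific pattern of growth hormone. The terminal ileum takes up bile acids, and its enterocytes answer them through the farnesoid X receptor (FXR) by making the hormone FGF15, which lowers bile acid synthesis in the liver. Enterocytes also make cholesterol. When sterols in the endoplasmic reticulum run low, the transcription factor SREBP2, bound to SCAP, is released from INSIG and then raises the genes of the mevalonate and sterol pathway. These are facts of background and not results of the present comparison.

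Library size was 16890574 to 20467119 gene counts in male LKO and 16260774 to 18578366 in 3 of the female LKO libraries, while female LKO replicate 1 had 60324336. Levels are given as CPM, the count relative to a library size that was scaled with TMM (trimmed mean of M-values), and a count of 0 allows up to 3 counts, which equal 0.0497 to 0.184 CPM in these libraries, for counting error only. All 16 libraries matched their labelled sex. The 12 enterocyte markers stood at 19959 to 23053 CPM in sum in male LKO and at 18254 to 23092 CPM in female LKO, with 0 of the 12 at 0 and the groups overlapping. Female LKO replicates 2 and 3, called the follicle-rich libraries here, stood apart from the other 6. Their summed level of 17 B cell and follicle markers was 329 and 630.4 CPM, against 62.6 to 70.4 CPM in male LKO and 78.6 and 80.3 CPM in female LKO replicates 1 and 4. In a principal component analysis of the 8 libraries, the first component held 40.7% of the variance, with those same 2 libraries at one end and the 4 males at the other. Results that rest on these libraries are therefore given with and without them.

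Of the 14771 autosomal genes tested, 8 passed an edgeR adjusted p of 0.05 (0.0542%), 5 higher and 3 lower in males. Each difference below is a log2 difference, male minus female. The higher genes included Hmgcs1 and Hsd17b7 of cholesterol synthesis, Alas1 of heme synthesis and the epithelial kinase gene Ptk6. The lower genes were Defb1, a beta-defensin, Cavin1, which builds caveolae, and Slc25a4, an exchanger of ADP and ATP in the inner mitochondrial membrane. In all 8 genes the 4 males lay apart from the 4 females, which was the case for 962 genes higher in males (6.51%) and 943 lower in males (6.38%) over all autosomal genes tested. The count of called genes was small beside what lay just behind it. A further 731 genes (372 higher, 359 lower) had an adjusted p between 0.05 and 0.10, and 1613 genes higher in males (10.9%) and 1723 lower in males (11.7%) had an unadjusted p under 0.05. Many genes thus lay close to the threshold. Over the alternatives tried, the number of calls ranged from 0, by edgeR with at least 10 counts required in every library (3194 genes at an unadjusted p under 0.05), to 1007. DESeq2 made these 1007 calls (483 higher, 524 lower), or 6.91% of the genes to which it gave an adjusted p, and a fit on all 16 libraries called 386 (185 higher, 201 lower), or 2.56%. Both held all of the 8. With the X and Y genes left out of the adjustment Defb1 alone passed, and the other 7 stood at an edgeR adjusted p of 0.0692. With upper-quartile scaling the split at an unadjusted p under 0.05 was 829 higher and 2383 lower, against 1613 and 1723 with TMM. The median log2 difference of all 14771 genes was -0.05 with that scaling and 0.00 with TMM.

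**Figure D1:**
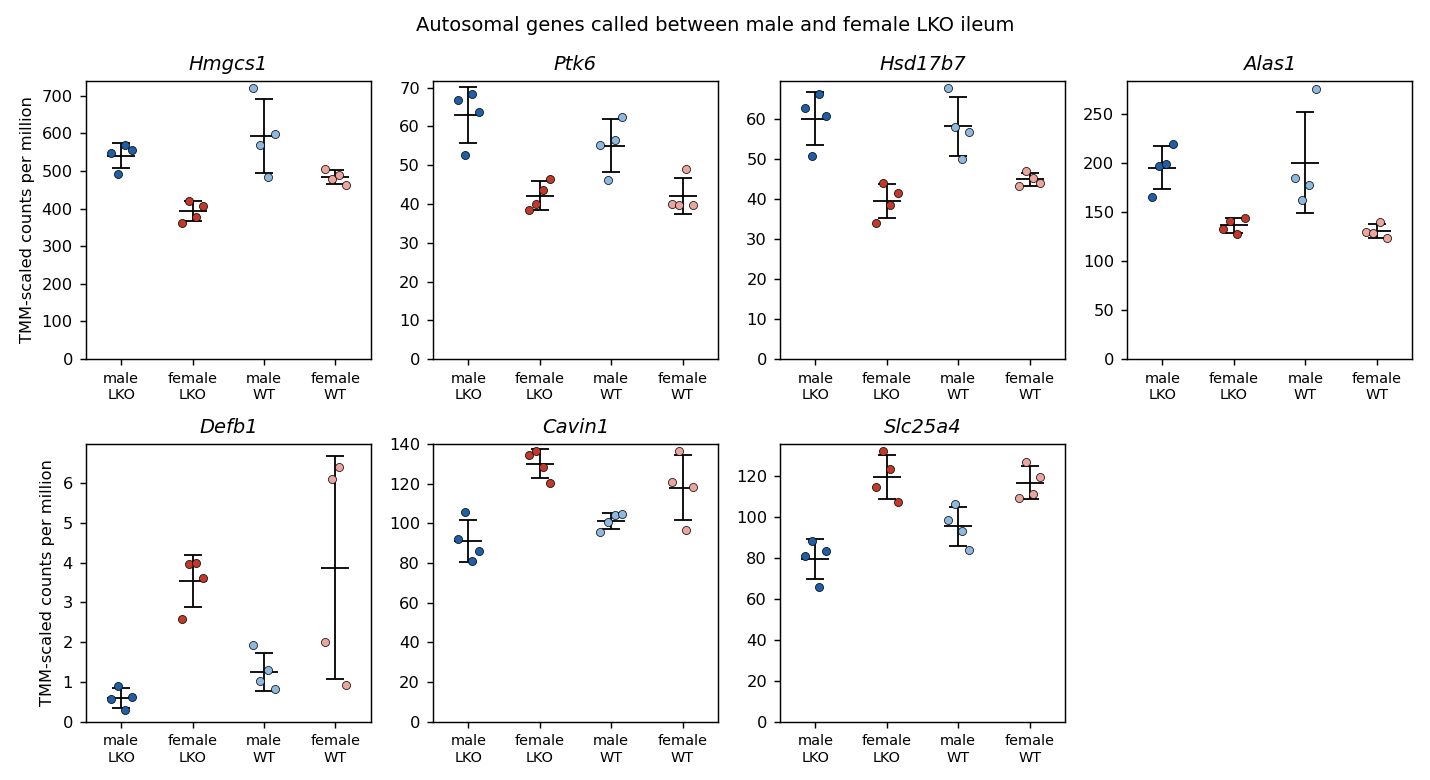
Level of 7 autosomal genes called between male and female LKO ileum, in TMM-scaled CPM, for the 4 libraries of each of the 4 groups (points), with the mean and SD (black bars). In each panel the 4 male LKO points lie wholly above or wholly below the 4 female LKO points, and the WT groups on the right differ in the same direction, with overlap in 4 of the 7 genes.

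Genes of cholesterol synthesis were higher in males almost throughout. Hmgcs1, the cytosolic HMG-CoA synthase at the entry of the mevalonate pathway (chromosome 13, 119690351 to 119708260, mm10), stood at 549, 491, 569 and 555 CPM in male LKO and at 363, 421, 378 and 408 CPM in female LKO. Every male exceeded every female, by 1.38-fold in the fit (log2 difference 0.46, SE 0.068, edgeR adjusted p 0.0309). Hsd17b7 (chromosome 1, 169949537 to 169969205) encodes a 3-ketosteroid reductase of late sterol synthesis that can also reduce estrone. Its levels were 62.9, 50.9, 66.3 and 60.8 CPM in males and 34.1, 44.2, 38.5 and 41.6 CPM in females, the largest of the 5 called increases in males, with a log2 difference of 0.61 (SE 0.095, edgeR adjusted p 0.0395). Both genes were higher in male than in female WT mice, with log2 differences of 0.28 and 0.36.

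The sequences before the start of both genes are shown because genes of this pathway share known promoter elements. For 15648 of the 17260 autosomal symbols that the RefSeq promoter table (GRCm38.p6) and the files share, the start was that of the deposited transcript. For these, the 250 bases before the start were searched on both strands for TCACNCCAC, a sterol regulatory element consensus, and for CCAAT, the core of the NF-Y site, which do not overlap in the stretches shown. Capitals mark the matches, where ATTGG is CCAAT on the other strand. The Hmgcs1 stretch, chr13:119690101-119690350 on the plus strand, held TCACCCCAC 137 to 129 bases before the start and 3 CCAAT matches, and the Hsd17b7 stretch, chr1:169969206-169969455 on the minus strand, held 3 CCAAT matches.
Hmgcs1: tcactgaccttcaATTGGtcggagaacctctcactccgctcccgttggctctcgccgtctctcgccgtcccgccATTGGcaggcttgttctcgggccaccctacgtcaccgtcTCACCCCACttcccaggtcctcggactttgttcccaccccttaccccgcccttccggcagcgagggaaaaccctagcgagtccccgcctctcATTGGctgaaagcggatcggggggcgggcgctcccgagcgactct
Hsd17b7: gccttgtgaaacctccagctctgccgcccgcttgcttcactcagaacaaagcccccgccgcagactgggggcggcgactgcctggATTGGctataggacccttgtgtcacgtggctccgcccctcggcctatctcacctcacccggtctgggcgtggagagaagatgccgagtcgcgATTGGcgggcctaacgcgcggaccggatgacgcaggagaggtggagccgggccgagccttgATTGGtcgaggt
Of the 24 cholesterol genes tested 15 were matched, and 12 of these 15 held CCAAT and 1 held TCACNCCAC. Over all 15648 stretches the shares were 35.6% for CCAAT and 1.05% for TCACNCCAC. A match describes the letters only and shows no binding.

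All 24 autosomal genes of the cholesterol synthesis and SREBP2 list were tested. In LKO, 23 of the 24 were higher in males and 17 of them had an unadjusted edgeR p under 0.05 (against 10.9% of all genes tested). None was lower at that level. The median log2 difference of the list was 0.29, where that of all 14771 genes was 0.00. With upper-quartile scaling these were 0.24 and -0.05. In 14 of the 24 genes all males exceeded all females, as in 6.51% of all genes tested. The summed level was 4052, 3497, 4249 and 3915 CPM in male LKO and 3013, 3259, 3117 and 3061 CPM in female LKO, so the lowest male lay above the highest female. Msmo1, the sterol C4-methyl oxidase, had a log2 difference of 0.45 and just missed the threshold (edgeR adjusted p 0.052). Others of the 17, named after their values were seen, were Cyp51, Sqle, Insig1, Idi1, Lss, Fdft1, Sc5d, Fdps, Stard4, Mvd and Dhcr7, between 0.19 (Dhcr7) and 0.47 (Insig1). Srebf2, Mvk, Acat2, Pmvk and Tm7sf2 were higher without reaching that level, and the sterol sensor gene Scap was the single member that was lower (-0.07, SE 0.061). The 16-library fit called 10 of the 24 and DESeq2 13, all higher in males, against 2.56% and 6.91% of all genes in either direction. With single libraries left out the median of the list stayed between 0.26 and 0.31. Without female LKO replicates 2 and 3 the median was 0.30, with 16 of the 24 higher at an unadjusted p under 0.05, where 7.0% of all genes tested were.

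**Figure D2:**
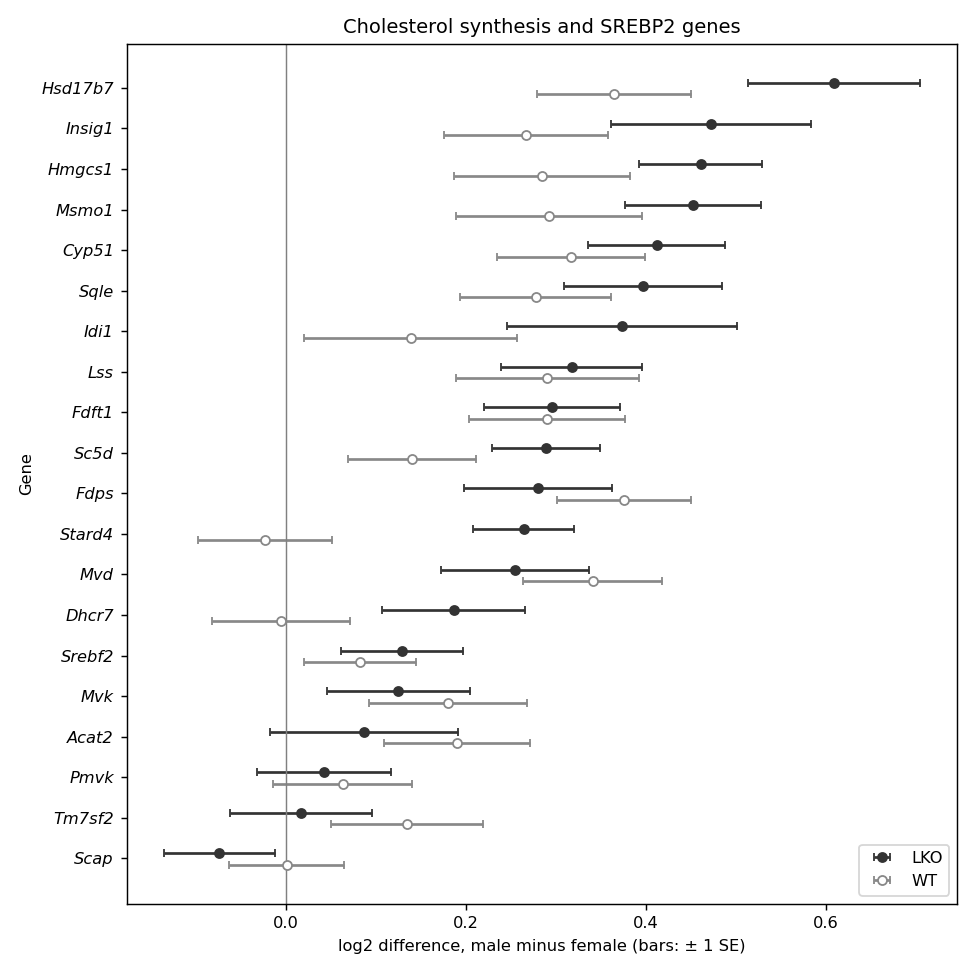
log2 difference between males and females (x axis, male minus female, bars ± 1 SE) for 20 of the 24 autosomal cholesterol synthesis and SREBP2 genes in LKO (filled) and WT (open). All filled points except Scap lie to the right of 0, and the open points lie to the right of 0 for 18 of the 20 genes.

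In WT, 22 of the 24 cholesterol genes were higher in males, 13 of them at an unadjusted p under 0.05, which 6.28% of all WT genes tested reached in that direction. The WT median was 0.21. A genotype by sex interaction was tested for each gene on the 16 libraries, and Stard4, a sterol transport protein gene named after its values were seen, was the 1 member of 24 at an unadjusted p under 0.05 (interaction 0.28 on the log2 scale, SE 0.092). Over all autosomal genes 5.6% were at that level. Genes that handle sterols rather than make them were counted apart. Of 14 genes of sterol uptake and efflux 0 were higher and 4 lower in males at an unadjusted p under 0.05, or 4 higher and 3 lower without the follicle-rich libraries, with Apoe at -0.39 (SE 0.089) and the HDL receptor gene Scarb1 at -0.38 (SE 0.11). Their median was 0.03, and it turned to -0.02 with upper-quartile scaling, where that of all genes was -0.05.

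The other called genes higher in males were Alas1 and Ptk6. Alas1 (chromosome 9, 106233455 to 106247954), which encodes the first and rate-limiting enzyme of heme synthesis, stood at 166, 197, 199 and 219 CPM in male LKO and 133, 141, 128 and 144 CPM in female LKO. The groups did not overlap, and the log2 difference was 0.52 (SE 0.081, edgeR adjusted p 0.0395). In WT the males stood at 185, 162, 177 and 276 CPM and the females at 129.7, 128, 140.2 and 124 CPM, also without overlap. The 4 erythroid markers tested were all higher in male LKO, 1 of them at an unadjusted p under 0.05, with overlapping groups, and their part in the Alas1 difference was not tested. Ptk6 (chromosome 2, 181195124 to 181202789) encodes a tyrosine kinase of differentiated gut epithelium. Its levels were 67, 52.7, 68.5 and 63.7 CPM in male LKO and 38.5, 40, 43.7 and 46.5 CPM in female LKO, a log2 difference of 0.58 (SE 0.09, edgeR adjusted p 0.0395), and male LKO replicate 2 was the male closest to the females.

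Among the genes tested, Defb1 had the smallest p. Defb1 (chromosome 8, 21776555 to 21795185) encodes beta-defensin 1, an antimicrobial peptide that many epithelia make without induction. It was scarce in every library, at 0.560, 0.897, 0.292 and 0.621 CPM in male LKO and 2.59, 3.97, 3.99 and 3.61 CPM in female LKO. Every female was above every male, 5.86-fold in the fit (log2 difference -2.55, SE 0.29, edgeR adjusted p 0.00231), and the gene passed in all 20 alternative fits that tested it, with log2 differences from -2.88 to -2.34. In WT the males stood at 1.92, 1.02, 1.29 and 0.821 CPM and the females at 2.01, 6.11, 6.42 and 0.932 CPM, so 2 of the WT females lay within or next to the male range (log2 difference -1.61, SE 0.64). The interaction of genotype and sex for Defb1 was -0.94 (SE 0.74).

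Cavin1 and Slc25a4 were the other called genes lower in males. Cavin1 (chromosome 11, 100956736 to 100970617) stood at 91.9, 106, 81.1 and 86.2 CPM in male LKO and 135, 137, 129 and 120.5 CPM in female LKO, with no overlap and a log2 difference of -0.51 (SE 0.081, edgeR adjusted p 0.0395). Slc25a4 (chromosome 8, 46207168 to 46211062) stood at 81.1, 88.1, 65.7 and 83.4 CPM in males and 115, 132, 124 and 107 CPM in females, a log2 difference of -0.59 (SE 0.093, edgeR adjusted p 0.0395). Muscle markers ran the same way as both genes. Of 13 smooth muscle markers, none of them at 0, 13 were lower in male LKO, with a median of -0.40. At an unadjusted p under 0.05 were 12 of them, against 11.7% of all genes tested. All 13 were lower without the follicle-rich libraries too, 8 at that level (against 6.77% of all genes tested), with a median of -0.32. Their summed level was 5331, 5683, 4283 and 5492 CPM in male LKO and 6009.5, 8130.1, 7265 and 6599 CPM in female LKO, so the groups did not overlap. Tagln, which encodes transgelin, had a log2 difference of -0.47 (SE 0.099, edgeR adjusted p 0.0674) and the smooth muscle actin gene Acta2 one of -0.45 (SE 0.099, edgeR adjusted p 0.0689). In WT all 13 were lower in males too, 10 at an unadjusted p under 0.05 where 7.57% of all WT genes were, with a median of -0.28 and 0 of 13 with an interaction at that level. The part of the muscle share in the differences of Cavin1, Slc25a4 and the other genes was not tested. Markers of the enteric nervous system, which lies within the muscle layers, had a median of -0.41, with 5 of 12 lower in males at an unadjusted p under 0.05, among them the neuronal genes Tubb3 (-0.64, SE 0.18) and Uchl1 (-0.47, SE 0.13), and 0 higher. Without the follicle-rich libraries 10 of the 12 were below 0, 3 at that level, with a median of -0.42. Of the other mesenchymal markers, 3 of 10 fibroblast genes, including the matrix genes Dpt (-0.31) and Dcn (-0.27), were lower at that level, and 1 of 10 endothelial and lymphatic genes.

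Behind the 8 called genes, the rule named the next genes by p whose groups did not overlap, 7 higher and 9 lower in males, none of which passed. The higher ones beside Msmo1 included Scd2, a stearoyl-CoA desaturase (0.75, SE 0.12), Atp10b, a phospholipid flippase (0.51, SE 0.09), Gna14, a G protein alpha subunit (0.78, SE 0.14), C1galt1, the core 1 O-glycan synthase (0.53, SE 0.097), and Hk2, a hexokinase (0.53, SE 0.096). Their edgeR adjusted p was 0.0599 to 0.0612. The lower ones, with an edgeR adjusted p of 0.0612 each, were Hand1, Cd59a, Cish, Atf5, Tgfb1i1, Serpina3n, Cryab, Ltbp3 and Defa3, between -0.64 (Serpina3n) and -0.40 (Ltbp3). Tgfb1i1 (Hic-5), Cryab and Hand1 are known from muscle and mesenchyme, Serpina3n is a serine protease inhibitor, and Atf5 is a transcription factor of mitochondrial stress. The WT difference had the same sign for all 16. Atf5 was the member with the smallest WT difference, at -0.07 (SE 0.11) against -0.56 in LKO, with 21.2, 24.6, 24.7 and 24.5 CPM in male LKO and 40.4, 37.3, 29.5 and 32.5 CPM in female LKO. Atf5 and Ltbp3 overlap neighbours on the other strand, and Scd2 holds a microRNA gene on its own strand, so their counts may hold reads of those genes. Defa3 belongs to the alpha-defensins, whose near-identical copies lose reads that map more than once.

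Genes of growth hormone signalling were examined because BCL6 acts against STAT5 in the liver. Cish, a feedback inhibitor that STAT5 induces, stood at 12.4, 13.5, 12 and 14.2 CPM in male LKO and 22.2, 16.5, 19.7 and 20.5 CPM in female LKO. Every male lay below every female, with a log2 difference of -0.61 (SE 0.11, edgeR adjusted p 0.0612). Socs2, another such inhibitor, stood at 42.7, 45.9, 49.4 and 49.5 CPM in males and 60.4, 59.1, 57.7 and 58.8 CPM in females, a log2 difference of -0.33 (SE 0.064, edgeR adjusted p 0.0612). Igf1, named after its values were seen, was lower in males as well (-0.56, SE 0.15). In WT the differences of these 3 genes were -0.49, -0.33 and -0.40. Of the 17 genes of the list, 5 were lower and 1 higher, the kinase gene Jak2 (0.18, SE 0.069), at an unadjusted p under 0.05, with a median of -0.13, and the WT counts were the same, 5 and 1. Of all genes tested 11.7% were lower and 10.9% higher in LKO, and 7.57% and 6.28% in WT. Without the follicle-rich libraries 4 of the 17 were lower and 1 higher at that level, against 6.77% and 7.0% of all genes. The median of the list was then -0.0021, with 8 genes above 0 and 9 below. Bcl6 itself stood at 18.5, 21.9, 17.2 and 18.1 CPM in male LKO and 18, 23.6, 26.1 and 15.2 CPM in female LKO. The groups overlapped (log2 difference -0.13, SE 0.16), the 2 highest females were the follicle-rich replicates 2 and 3, and without them the sign turned to 0.18. BCL6 is itself highly expressed in germinal center B cells. In WT Bcl6 was higher in males by 0.38 (SE 0.15), and its interaction was -0.52 (SE 0.24). All 8 LKO libraries held Bcl6 transcripts, and since the deletion is in hepatocytes this does not check it.

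The FXR panel showed no difference between LKO males and females that passed the test. Fgf15 stood at 33.5, 34.9, 27.1 and 55 CPM in male LKO and 51.8, 48.2, 92 and 72.9 CPM in female LKO. The highest male exceeded the 2 lowest females, and the log2 difference of -0.81 (SE 0.29) had an edgeR adjusted p of 0.177. In WT it was -2.62 with a wide error (SE 1.1). Slc51a and Slc51b, the subunits of the basolateral bile acid exporter, differed by -0.03 (SE 0.085) and 0.0014 (SE 0.086). Fabp6, the ileal bile acid-binding protein gene, stood at 3834, 3853, 3930.2 and 4205 CPM in males and 3309, 4773, 4528 and 3984 CPM in females (-0.07, SE 0.099). In WT the log2 difference was -0.56 (SE 0.12), with all males below all females, and the interaction was 0.48 (SE 0.17), which did not pass over all genes. Slc10a2, the apical bile acid transporter gene (0.16, SE 0.2), and Nr1h4, the FXR gene (0.12, SE 0.078), had overlapping groups, and Nr0b2 was too low to be tested. Of 19 genes of bile acid transport and FXR that were tested, 1 was higher, the drug and bile acid efflux pump gene Abcb1a (0.24, SE 0.098), and 2 were lower at an unadjusted p under 0.05, Fgf15 and the FGF15 co-receptor gene Klb (-0.72, SE 0.3). The median was 0.08. Over all genes tested 10.9% were higher and 11.7% lower at that level. Without the follicle-rich libraries 2 of the 19 were higher and 0 lower at it, against 7.0% and 6.77% of all genes. The median of the 19 was then 0.07, and Fgf15 differed by -0.72 (SE 0.32).

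Several groups of epithelial genes were higher in male LKO by small amounts, with no member called. Of 18 genes of glycosylation and fucosylation, 10 were higher and 2 lower at an unadjusted p under 0.05, with a median of 0.28. Among all genes tested 10.9% were higher and 11.7% lower at that level. C1galt1 stood at 36.5, 31.9, 39.9 and 31.5 CPM in males and 21.8, 26, 22.8 and 26.7 CPM in females, and the mucin-type branching enzyme gene Gcnt3 at 140.5, 163, 164 and 140.5 CPM and 114, 117, 95.1 and 118 CPM, both without overlap. Fut1 was the lowest member (-0.53, SE 0.2). The WT median of the glycosylation list was 0.08, with 1 gene higher and 2 lower. A positive interaction at an unadjusted p under 0.05 was found in 3 of the 18, and in 372 of all 14770 genes. Of 17 tight junction genes 8 were higher and 3 lower, with the scaffold gene Tjp1 (0.28, SE 0.081) among the higher and the claudin genes Cldn1 (-0.90, SE 0.29) and Cldn8 (-0.46, SE 0.16) among the lower. Without the follicle-rich libraries 6 of the 18 glycosylation genes were higher and 1 lower at that level, and 4 of the 17 tight junction genes higher and 2 lower, with medians of 0.20 and 0.14. Of all genes tested 7.0% were higher and 6.77% lower at that level without those libraries. Chaperones and folding factors of the unfolded protein response were higher in 10 and lower in 1 of 23 genes, with a median of 0.21. Canx, which encodes calnexin, had the smallest p of these (0.34, SE 0.099), and Herpud1, a factor of protein degradation from the endoplasmic reticulum, was the lower one (-0.26, SE 0.076). In WT 11 of the same 23 were higher at that level, and without female LKO replicates 2 and 3 none of the 23 was higher at it in LKO, although the median stayed at 0.18. Of 40 cell cycle genes 12 were higher and 0 lower, led by the mitotic kinesin gene Kif11 (0.29, SE 0.064) and the kinase gene Aurka (0.28, SE 0.076). Without the 2 follicle-rich libraries 2 of the 40 were higher at that level, where 7.0% of all genes tested were. The median of the 40 was then 0.03, against 0.15 with all 8.

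Enzymes that act on steroids, retinoids and xenobiotics varied from gene to gene. Of 32 steroid and retinoid enzymes tested 8 were higher and 1 lower in males at an unadjusted p under 0.05. Beside Hsd17b7 these included Hsd17b12, of very long chain fatty acid elongation (0.27, SE 0.068), and the lower one was the retinal reductase gene Dhrs3 (-0.19, SE 0.072). The largest difference of the list was in Srd5a2, steroid 5 alpha-reductase 2, which makes dihydrotestosterone and was named after its values were seen. It stood at 1.68, 1.49, 1.23 and 1.24 CPM in male LKO and 0.743, 0.611, 0.169 and 0.0531 CPM in female LKO, with 2 of the females at or under 3 counts (1.61, SE 0.46, edgeR adjusted p 0.0956), and was too low to be tested in WT. Of 42 xenobiotic enzymes and transporters 10 were higher and 5 lower, and 11 and 2 without the follicle-rich libraries. The higher ones included the cytochrome P450 gene Cyp2j6 (0.48, SE 0.094) and the sulfotransferase gene Sult1d1 (0.38, SE 0.076), and the lower ones the epoxide hydrolase gene Ephx1 (-0.44, SE 0.13) and the glutathione transferase gene Gsta3 (-0.44, SE 0.14). Gsta3 has close paralogs, which makes its count less certain. In WT Cyp2j6 differed by 0.36 and Sult1d1 by -0.04. Of 26 steroid hormone and other nuclear receptor genes 4 were higher and 0 lower, among them Ppard (0.22) and Hnf4a (0.17), where 10.9% of all genes tested were higher. Without the follicle-rich libraries 2 of the 26 were higher at that level.

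Iron and sugar genes were higher in males in part. Of 16 genes of iron and vitamin B12 handling 6 were higher and 2 lower at an unadjusted p under 0.05, against 10.9% and 11.7% of all genes tested. The metal transporter genes Slc39a14 (0.24, SE 0.072) and Slc11a2 (0.31, SE 0.094) were among the higher, with the iron exporter gene Slc40a1 at 124, 119.9, 182 and 195 CPM in males and 112, 76.6, 94.1 and 101 CPM in females, without overlap. The transferrin receptor gene Tfrc, named after its values were seen, stood at 195, 194, 221 and 333 CPM in males and 129, 125, 108 and 175 CPM in females, also without overlap, and differed by 0.72 in WT against 0.81 in LKO. The heme oxygenase gene Hmox1 was lower (-0.44, SE 0.15), while Alas1, of heme synthesis, was called higher. The median of the list was 0.03 and turned to -0.02 with upper-quartile scaling, where that of all genes was -0.05. Of the 16 iron and vitamin B12 genes, 2 were higher and 0 lower at an unadjusted p under 0.05 without the follicle-rich libraries, against 7.0% and 6.77% of all genes. Of 17 genes of sugar transport and fructose use 6 were higher and 1 lower, the lower being Txnip (-0.20, SE 0.07), and without those libraries 8 and 1. Hk2 stood at 244, 228, 277 and 296 CPM in males and 182, 187, 153 and 201 CPM in females. Its WT groups overlapped widely (0.17, SE 0.3).

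Lipid genes varied within their lists. Within fatty acid synthesis and desaturation, 4 of 18 were higher and 5 lower in males at an unadjusted p under 0.05 (against 10.9% and 11.7% of all genes tested), with a median of -0.13. Without the follicle-rich libraries 3 were higher and 1 lower at that level and the median turned to 0.01. Leaving out 1 library gave 2 lower without female LKO replicate 2 or 3 or male LKO replicate 1 or 2, and 3 without male LKO replicate 3. Scd2 stood at 636, 436, 490.0 and 409 CPM in male LKO and 299.7, 296, 276 and 294 CPM in female LKO, and the elongase gene Elovl6 was also higher (0.32, SE 0.096). The paralog Scd1 went the other way, at 152, 215, 81.9 and 332 CPM in males and 445, 1531, 801 and 503 CPM in females, with no overlap (log2 difference -2.07, SE 0.59, edgeR adjusted p 0.127). Female LKO replicate 2 held the highest Scd1 level. Adipocyte markers ran the same way as Scd1. All 8 of them were lower in male LKO, 6 at an unadjusted p under 0.05, with a median of -1.12, and their summed level was 230.2, 209, 186 and 269 CPM in male LKO and 401, 576, 436 and 281 CPM in female LKO, with 0 of the 8 at 0. Car3 (-1.34, SE 0.27) and the lipid droplet gene Plin1 (-1.45, SE 0.36) had the smallest p among them. Without the follicle-rich libraries all 8 were still below 0, 4 at that level, with a median of -0.77. In WT the median of the 8 was 0.08, and 6 of 8 had a negative interaction at an unadjusted p under 0.05, as had 456 of all 14770 genes. Their summed level in WT was 282, 193, 225 and 532 CPM in males and 368, 210, 224 and 316 CPM in females. Male WT replicate 4 was well above the other WT males. The part of fat tissue in the Scd1 difference was not tested.

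The B cell and follicle markers separated the sexes in LKO mainly through female LKO replicates 2 and 3. All 12 B cell and follicle genes tested were lower in males, 10 at an unadjusted p under 0.05 (against 11.7% of all genes tested), with a median of -2.20. Cd79b, a subunit of the B cell receptor, stood at 6.36, 7.05, 7.48 and 7.04 CPM in male LKO and 9.37, 33.2, 62.3 and 9.41 CPM in female LKO, so 2 of the females were far above the rest. Without these 2 libraries the median of the 12 was -0.31 and 3 of 12 were lower at that level, where 6.77% of all genes tested were. In WT the median was 0.20, with male WT replicate 2 and female WT replicate 3 as the libraries with the most follicle RNA. Of 16 T cell and intraepithelial lymphocyte genes 6 were lower and 0 higher, led by Cd4 (-0.56, SE 0.13) and Cd5 (-0.86, SE 0.26). Without the 2 libraries these were -0.52 and -0.81, and 4 of the 16 were lower at that level.

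Tuft cells, chemosensory epithelial cells that start type 2 immune responses, were marked by 10 tested genes. All 10 were lower in male LKO, 8 at an unadjusted p under 0.05 (against 11.7% of all genes tested), with a median of -0.63. Their summed level, over 11 markers of which none was at 0, was 117, 139, 106 and 121 CPM in male LKO and 151, 177, 208 and 142 CPM in female LKO, and the highest male lay just under the lowest female. Rgs13 differed by -0.70 (SE 0.15, edgeR adjusted p 0.0683) and Pou2f3, the master regulator of the lineage, by -0.83 (SE 0.21, edgeR adjusted p 0.0783). Without the follicle-rich libraries the median was -0.30, with 4 of the 10 lower at an unadjusted p under 0.05. In WT it was -0.15. Rgs13 is also expressed in germinal center B cells, and the part of follicle RNA in the tuft cell list was not tested. Of 14 genes of MHC class II presentation 7 were lower and 0 higher. With the follicle-rich libraries left out 0 of the 14 were lower at that level, with the median at -0.52 against -0.53 with all 8, and leaving out single libraries gave 2 (without female LKO replicate 3) to 7. Their summed level was 5634, 5424, 2883 and 5406 CPM in male LKO, where replicate 3 was lowest, and 7551, 5549, 7559 and 6720.1 CPM in female LKO, and the groups overlapped. In WT 7 were lower too, with a median of -0.22.

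**Figure D3:**
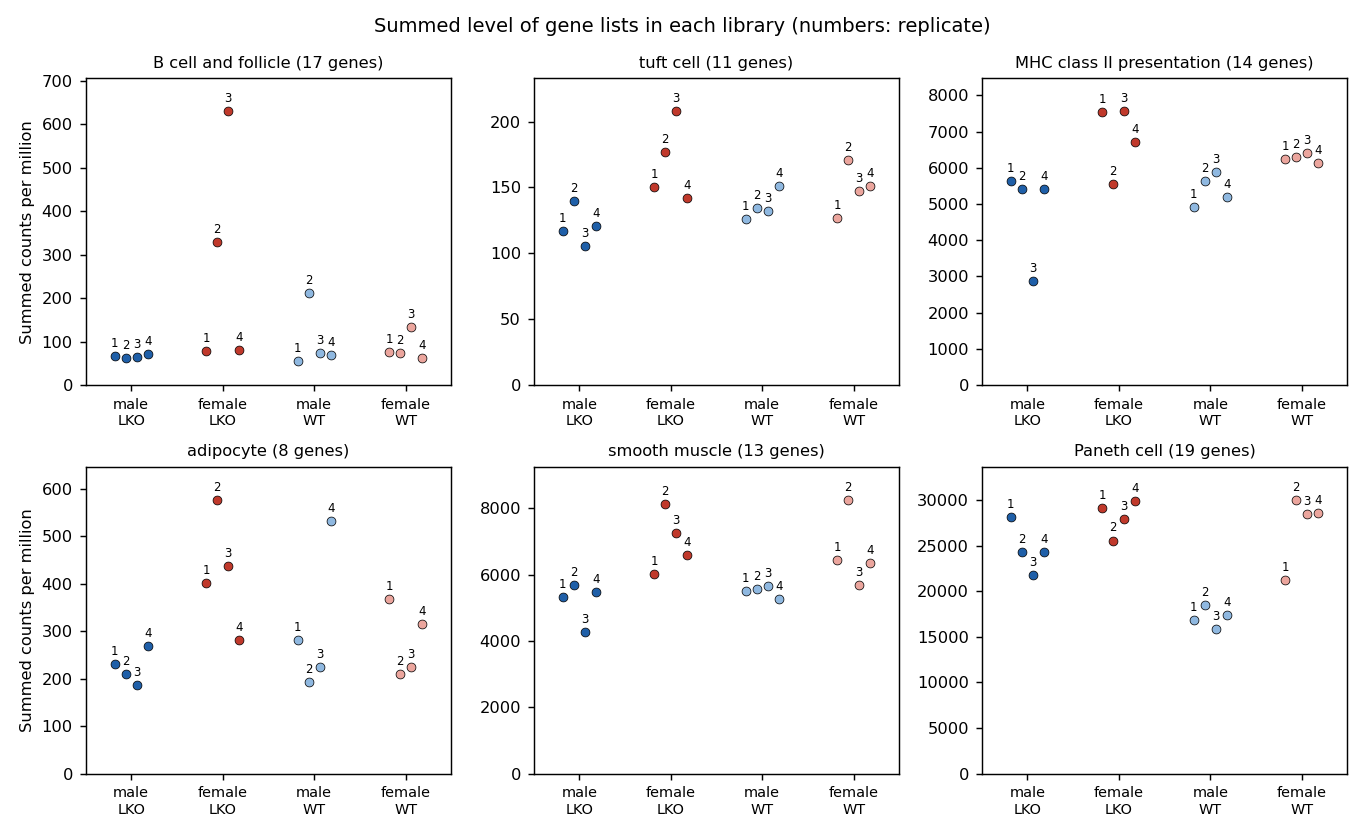
Summed level of 6 gene lists (y axis, summed CPM, from 0) in each library, by group, with the replicate number above each point. Female LKO replicates 2 and 3 lie far above the other LKO libraries for B cell and follicle genes, and the 4 female LKO libraries lie above the 4 male LKO libraries for smooth muscle, adipocyte and tuft cell genes.

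Paneth cells of the crypt secrete antimicrobial peptides, and other epithelial cells make defence genes of their own. Of 18 Paneth cell genes tested 6 were lower in male LKO at an unadjusted p under 0.05 and 0 higher, with a median of -0.18, and 8 were lower at that level without the follicle-rich libraries. Defa3 stood at 38.4, 33.7, 34.5 and 34.8 CPM in males and 43, 55.7, 49.2 and 45.6 CPM in females and Defa24 at 6953, 6602, 5818 and 5319 CPM and 7832, 8487, 8167 and 7915 CPM, both without overlap and both uncertain for the reads shared among alpha-defensins. The lysozyme gene Lyz1 had a log2 difference of 0.21 (SE 0.1). In WT 17 of the 18 were lower in males at that level (against 7.57% of all WT genes), with a median of -0.67. A positive interaction at an unadjusted p under 0.05 was found in 7 of the 18, and in 372 of all 14770 genes. Lyz1 was among the 7 (0.70, SE 0.15). Reg3b, a C-type lectin that enterocytes secrete, was higher in male LKO, at 17888, 16362, 30193 and 18712 CPM against 12050.4, 13444, 11950.3 and 14852 CPM in females. Male LKO replicate 3 was well above the other males, the groups did not overlap, and the log2 difference was 0.67 (SE 0.19, edgeR adjusted p 0.112). Over the 25 epithelial defence genes 4 were higher and 2 lower, Defb1 and the intelectin gene Itln1 (-0.17, SE 0.064). Over all genes tested 10.9% were higher and 11.7% lower at an unadjusted p under 0.05. The median of the 25 was 0.03 and turned to -0.02 with upper-quartile scaling, where that of all genes was -0.05. The WT difference of Itln1 was -0.69 (SE 0.12), and it was the 1 gene with an interaction past the threshold when female WT replicate 1 was left out (edgeR adjusted p 0.035).

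Of 67 subunits of oxidative phosphorylation 6 were higher and 1 was lower in LKO males at an unadjusted p under 0.05, with a median of 0.00. Of 28 genes of mitochondrial fatty acid oxidation and ketogenesis 2 were higher and 1 lower. Both medians were below 0 with upper-quartile scaling, as was that of all genes (-0.05). Of the 67 subunits 0 were higher and 1 lower at that level without the follicle-rich libraries. Of 19 circadian clock genes 2 were higher and 0 lower, and of 23 immediate early genes 3 and 2. Over all genes tested 10.9% were higher and 11.7% lower at that level. For 40 interferon response genes the counts were 1 and 2, but without female LKO replicates 2 and 3 they were 5 and 19, without replicate 2 alone 1 and 14, and in WT 0 and 10. Among cell types, 3 of 12 enterocyte, 3 of 11 goblet cell and 4 of 15 enteroendocrine markers were higher and 1 of each lower, and 2 of 10 stem cell markers were higher and 1 lower. Of the 12 enterocyte markers 7 were higher and 0 lower at an unadjusted p under 0.05 without the follicle-rich libraries, with a median of 0.31 against 0.09. Without female LKO replicate 1 alone 0 were higher at that level. The counts without the follicle-rich libraries were 1 and 1 for goblet, 2 and 0 for enteroendocrine and 0 and 2 for stem cell markers. The 9 caecum and colon markers summed to 1579 CPM in male LKO replicate 2 and to 71.4 to 141 CPM in the other 7 LKO libraries, with 0 of 3 tested at an unadjusted p under 0.05. The 8 markers of the proximal small intestine, Slc40a1 the most abundant, summed to 151 to 225 CPM in males and 119.7 to 138 CPM in females, without overlap, and of the 5 tested 1 was higher and 1 lower. What part the position of the tissue piece had in any difference was not tested.

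**Figure D4:**
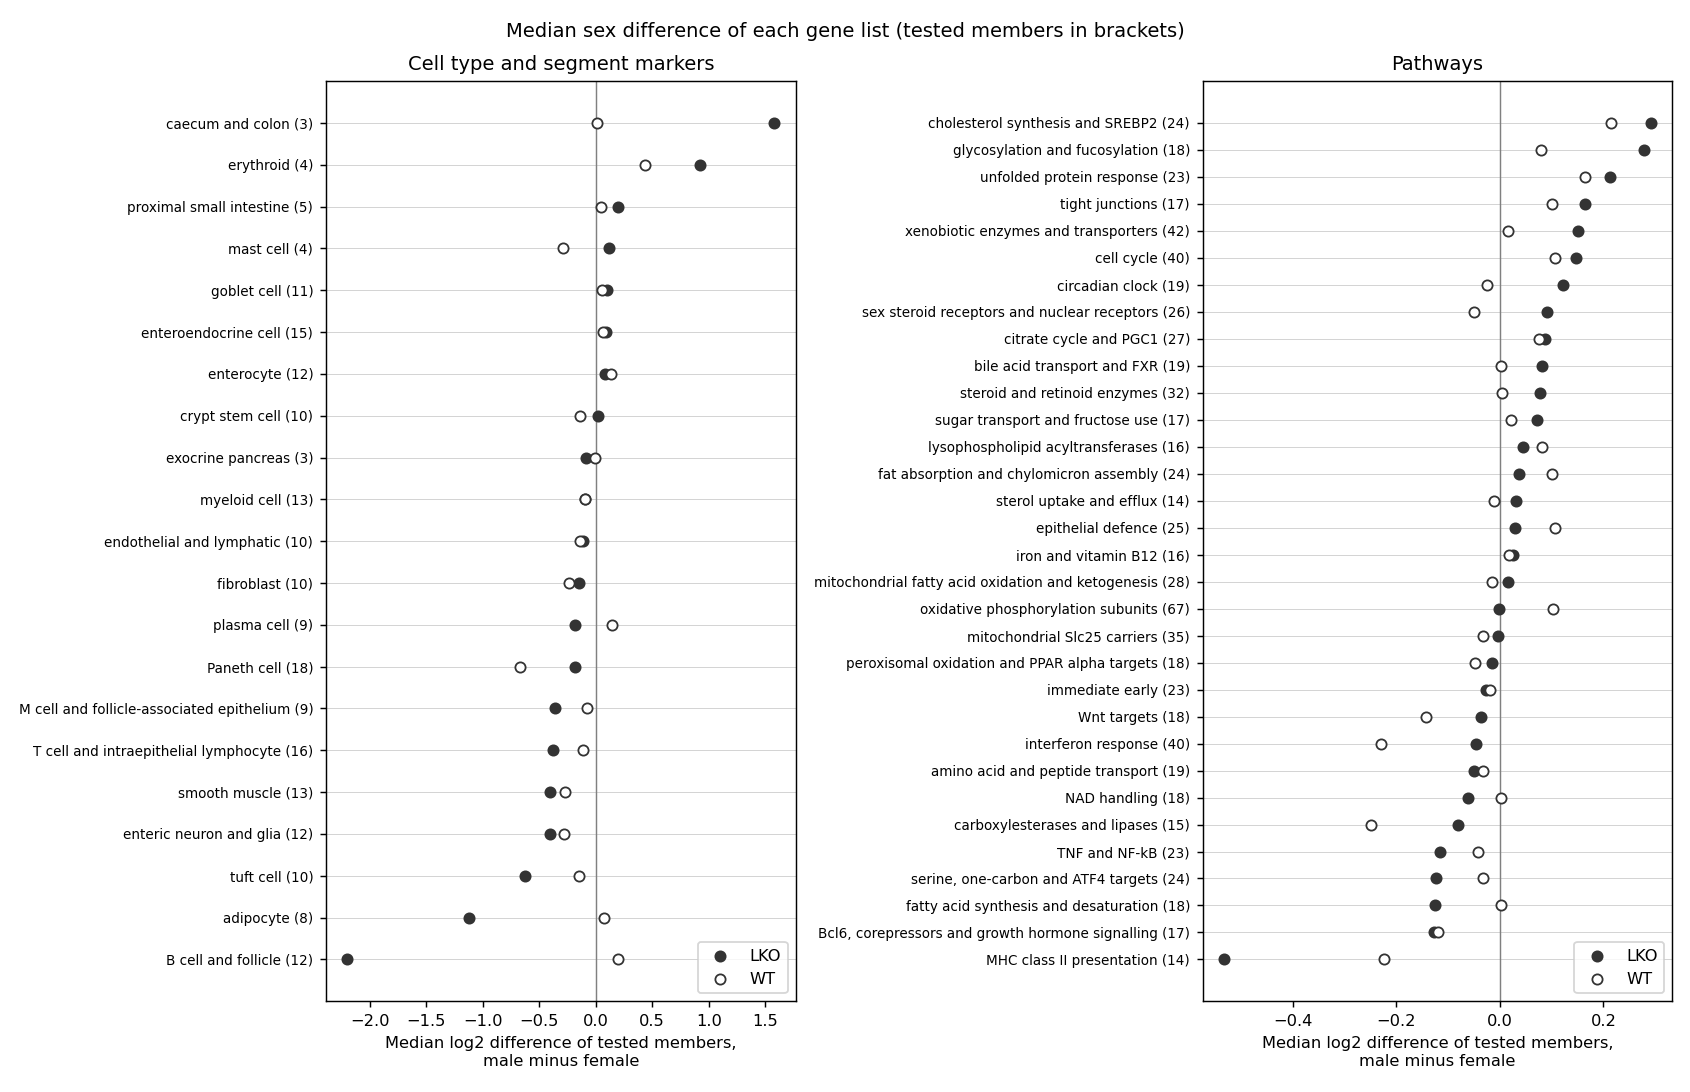
Median log2 difference between males and females (x axis, male minus female) of the tested members of 21 marker lists (left) and 32 pathway lists (right), in LKO (filled) and WT (open), sorted by the LKO median, with the number of members tested in LKO in brackets. Cholesterol synthesis and glycosylation stand highest among the pathways in LKO and MHC class II presentation lowest, and B cell and follicle markers lie near -2.2 in LKO and near 0.20 in WT. The x scales of the panels differ.

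The direction of the difference varied with the level of a gene. The gene lists above were not matched for level, and its part in their counts was not tested. Among 2067 autosomal genes with a mean of at least 100 CPM, 27.7% were higher and 4.98% lower in male LKO at an unadjusted p under 0.05, while among 4131 genes between 1 and 10 CPM 2.11% were higher and 16.9% lower. Whatever their expression, genes with an unadjusted p under 0.05 had a median absolute log2 difference of 0.30. Of the 168 of them that reached an absolute log2 difference of 1, 16 were higher and 152 lower in males. The share of genes with an unadjusted p under 0.05 was between 20.6% on chromosome 8 and 31.5% on chromosome 18.

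The same sex comparison in WT gave a second set of 8 animals that shares no library with the first. Of 14750 genes tested in WT 30 were called (0.203%), 10 higher and 20 lower in males. None of these was among the 8 called in LKO, yet all 8 had the same sign in WT with an unadjusted p under 0.05, and 3 of them (Hsd17b7, Alas1 and Slc25a4) had WT groups without overlap. Conversely, 28 of the 30 WT genes had the same sign in LKO, 16 of them at an unadjusted p under 0.05. Across 14625 genes tested in both, the 2 log2 differences correlated with Pearson's r 0.39 and Spearman's rho 0.49, as a description over genes that are not independent and that share the scaling and the cell makeup of the samples. Of 3314 genes with an unadjusted p under 0.05 in LKO, 84.8% had the same sign in WT, against 68.8% of all genes. At that level in both genotypes were 818 genes with the same sign (400 higher, 418 lower) and 6 with opposite signs. The 6, named after their values were seen, were Slc26a3, Lims1, Clic6 and Pla2g2f, higher in LKO males and lower in WT males, and Marcksl1 and Shmt2, the other way. Among the 8 called genes, Cavin1 (-0.29, SE 0.13) and Slc25a4 (-0.30, SE 0.13) had an interaction at an unadjusted p under 0.05. Slc26a3, the chloride and bicarbonate exchanger gene, had the largest interaction of the 6, at 0.69 (SE 0.14), with log2 differences of 0.43 in LKO and -0.27 in WT. None of the 15098 genes tested for interaction passed with edgeR or with DESeq2, where 846 and 926 had an unadjusted p under 0.05, and the smallest edgeR adjusted p was 0.845. No difference in the effect of sex between LKO and WT was therefore resolved for any single autosomal gene, which does not show that the effects are equal.

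**Figure D5:**
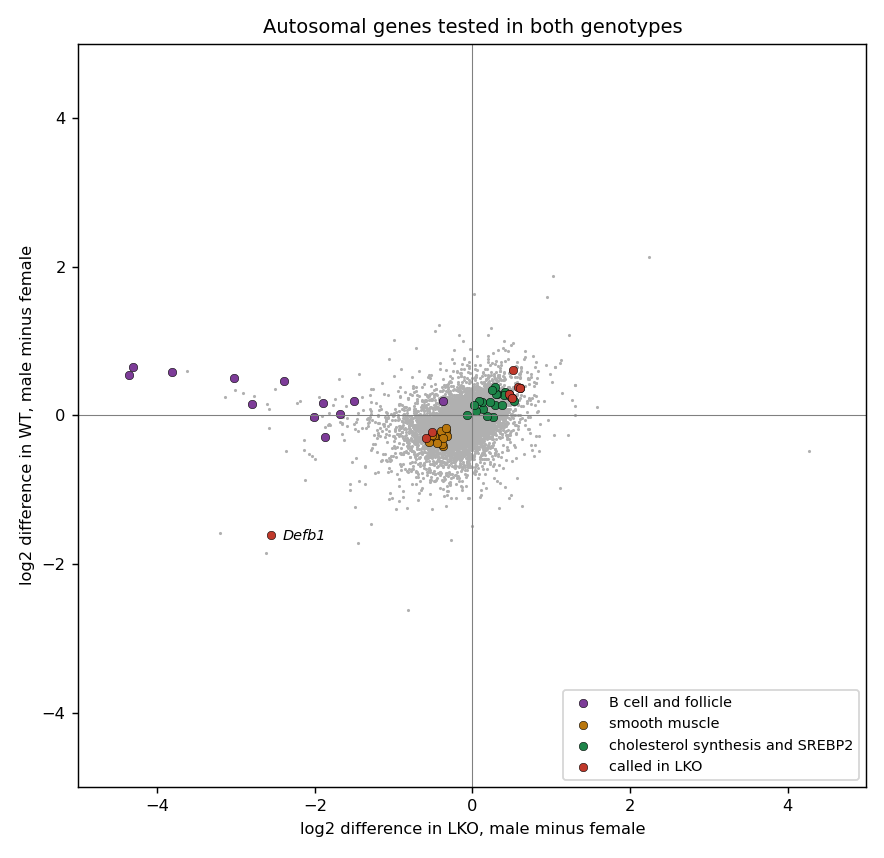
log2 difference between males and females in WT (y axis) against that in LKO (x axis) for the 14625 autosomal genes tested in both (grey), with 3 gene lists and the 8 called genes coloured and Defb1 named. Cholesterol genes lie to the upper right, except Scap, Stard4 and Dhcr7, smooth muscle markers to the lower left, and Defb1 far to the lower left, while B cell and follicle genes spread to the left near 0 on the WT axis.

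The numbers in the sample titles differ between the groups in part. Male LKO replicate 1 has a number that neighbours those of female LKO replicates 2 to 4. It lay beyond all 3 of them in 21 of 24 cholesterol genes and 12 of 13 smooth muscle markers. In 14 and 7 of these, and in all 8 called genes, all males lay apart from all females, so there the outcome was fixed in advance. Over all genes, male LKO replicate 1 lay above the 3 females for 31.6% and below them for 30.7%. No conclusion is drawn from these counts. What the numbers stand for is not stated.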

How the data were processed

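RNA from the terminal ileum was sequenced as stranded mRNA libraries, 1 per mouse. The deposited values are raw read counts per gene. Per the submitters' processing notes and the study's methods, the authors used STAR 2.5.2 for alignment to mm10, kept reads with a single position, and counted those in exons with HOMER 4.10, 1 transcript per gene. Reads that near-identical genes share are therefore lost, and since the strand option of the counting is not given in the sources used here, overlapping genes on opposite strands (Tagln, Abcb1a, Txnip, Slc51b, Uchl1, Atf5 and Ltbp3 among those named) may share counts.

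The 8 LKO libraries were fitted with edgeR 4.0.16 (R 4.3.3) by the quasi-likelihood F-test with TMM scaling, filterByExpr by group and the robust option. Adjustment of p (Benjamini-Hochberg) ran over all genes tested, X and Y included, with calls at 0.05. The study's own analysis used DESeq2, which served here (1.42.0) as an alternative, as did the settings described at the end. An adjusted p that DESeq2 did not give was left out. The interaction of genotype and sex was fitted on 16 libraries. CPM levels use 1 TMM scaling over 16 libraries. SE is the log2 difference divided by the square root of F. P-values measure the spread between these animals. Library size was 16260774 to 60324336 gene counts in LKO. The edgeR and DESeq2 fits were tested on simulated data.

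Genes named by rule were autosomal, with a mean of at least 1 CPM in LKO except in the FXR panel. They were those called, then the next non-overlapping genes by p up to 12 per direction, an FXR panel with Bcl6, and from each of 53 gene lists up to 2 higher and 2 lower by p. Others are said to have been chosen after their values were seen. The members and lists were chosen with earlier results of these data known. Results for some genes these rules would name are not reported here.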

Additional observations from a re-analysis of the deposited data

Results flagged for a closer look

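Single libraries far from the other 3 of their group were sought in male and female LKO for 120 genes the text names. In 10 of the 240 groups, the gap between 1 library and its nearest neighbour took up more of the group's range than Dixon's critical value for 4 samples allows, where chance gives about 1 in 20. Each value below is that gap as a share of the range.

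The sterol gene Cyp51 in female LKO (0.832) had replicate 3 lowest at 176 CPM. Among genes ranked just behind, Atf5 in male LKO (0.962) had replicate 1 lowest at 21.2 CPM with the other males at 24.5 to 24.7 CPM, and Serpina3n in female LKO (0.897) had replicate 1 highest at 31.4 CPM.

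In the remaining genes the library apart was male LKO replicate 2 for Ang4 (0.888, highest), Igf1 (0.871, highest) and Nr0b2 (0.871, at 0 where 3 counts are the limit), and male LKO replicate 3 for Reg3b (0.83, highest at 30193 CPM). Female LKO replicate 1 was highest for Dpt (0.864), replicate 3 lowest for Gcnt3 (0.855) and replicate 4 highest for Lims1 (0.864).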

How the results depend on the processing

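The number of autosomal genes called between male and female LKO depended on nearly every choice. It was 8 as reported, 7 with DESeq2's size factors (RLE) in edgeR, 8 with another quasi-likelihood method and 9 with the deepest library thinned. It was 1007 with DESeq2, 386 with 1 fit on 16 libraries, 128 without a filter on low counts, 69 with upper-quartile scaling, 5 with the title number as covariate, and 1 each without the robust option, with adjustment over autosomal genes alone and with an absolute log2 difference of at least 1 required. With at least 10 counts required in every library edgeR called 0 (3194 at an unadjusted p under 0.05). Leaving out 1 library gave 1 (without female LKO replicate 1) to 626 (without female LKO replicate 4), with 5, 57, 2 and 3 calls without male LKO replicates 1 to 4 and 21 and 2 without female LKO replicates 2 and 3. Without both of the last, an alternative chosen after seeing the data, 26 were called (7 higher, 19 lower), 3 of the 8 among them. Defb1 was called in all 20 alternatives that tested it. The cause of these shifts was not tested.

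The WT count of 30 was 227 with DESeq2, 19 with RLE, 61 without a filter and 12 without the most follicle-rich library of each sex, also chosen after seeing the data, and 1 to 56 with 1 library left out. The interaction count was 0 throughout, with DESeq2 too (926 at an unadjusted p under 0.05), and 0 to 1 with 1 library left out, the 1 being Itln1 without female WT replicate 1. With title replicate numbers as a replicate block 14 LKO genes were called (7 higher, 7 lower), 5 of the 8 among them, 34 in WT and 0 for the interaction. Same-numbered LKO males and females did not deviate together (correlations from -0.09 to 0.13, with male replicate 2 alone closest to its own number). These values gave no sign that the numbers pair the animals, but so few correlations cannot exclude it.

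Of 650 alternative values for 31 named genes, 469 kept direction and side of the threshold, 93 passed it newly, 75 no longer passed and 13 changed sign. The sign changes were all in genes that were not called. With 1 library left out Slc51a ranged from -0.10 to 0.038, above 0 without male LKO replicate 1 (0.038) or female LKO replicate 2 (0.0089), and it was 0.042 without both follicle-rich libraries. Slc51b ranged from -0.064 to 0.070 with 1 library left out, below 0 without male LKO replicates 3 and 4 or female LKO replicates 1 and 3, and turned to -0.046 with upper-quartile scaling, -0.0057 with at least 10 counts required and -0.12 with the title number as covariate. Fabp6 ranged from -0.17 to 0.0037 (without female LKO replicate 2) and turned to 0.11 without both follicle-rich libraries, and Bcl6 to 0.18 without the latter. Depth limits genes as low as Defb1, Srd5a2 and Nr0b2, since 3 counts equal up to 0.184 CPM.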

Other observations

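Other lists had no member called among the genes named here, and their counts are at an unadjusted p under 0.05. Over all genes tested 10.9% were higher and 11.7% lower at that level. The counts of the carboxylesterase, TNF and NF-kB, NAD and fat absorption lists with all 8 libraries were near those shares. Genes of serine and one-carbon metabolism and other ATF4 targets were lower in male LKO in 3 and higher in 0 of 24 at an unadjusted p under 0.05 (where 11.7% of all genes tested were lower, a like share), with the smallest p in Mthfd2, a mitochondrial folate enzyme, at 18.5, 18.1, 19.6 and 20.6 CPM in males and 30.2, 23.9, 26.5 and 25.3 CPM in females without overlap (-0.47, SE 0.091), and Phgdh, the entry enzyme of serine synthesis (-0.38, SE 0.12). In WT these differed by 0.10 and 0.26. Of 27 genes of the citrate cycle and PGC1 list 6 were higher and 3 lower, or 2 and 1 without female LKO replicates 2 and 3, with both phosphoenolpyruvate carboxykinase genes lower, Pck1 (-0.68, SE 0.19) and Pck2 (-0.29, SE 0.073), each without overlap. Nampt, the rate-limiting enzyme of NAD salvage, was higher (0.31, SE 0.078) among 18 genes of NAD handling, of which 3 were higher and 1 lower.

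In fat absorption 4 of 24 genes were higher and 2 lower, with a median of 0.04. Without female LKO replicates 2 and 3 it was 8 and 2, with a median of 0.21, and without female LKO replicate 1 alone 1 and 2, with a median of -0.048. Sar1b, needed for the export of chylomicrons, was higher without overlap (0.28, SE 0.07), and the fatty acid translocase gene Cd36 was lower (-0.57, SE 0.17), as was Fabp1, at 3.05, 4.54, 1.11 and 1.86 CPM in males and 4.69, 8.92, 13.9 and 3.88 CPM in females (-1.55, SE 0.55). Of 15 carboxylesterases and lipases 2 were higher and 3 lower, with Ces2a at 0.40 (SE 0.11) and the monoglyceride lipase gene Mgll at -0.33 (SE 0.097). In the TNF and NF-kB list, 2 of 23 were higher and 3 lower, the latter led by the adhesion molecule gene Vcam1 (-0.58, SE 0.13) and Traf1 (-0.96, SE 0.23), whose levels were highest in female LKO replicate 3. Of 13 myeloid genes 4 were lower and 1 higher, with the complement genes C1qa (-0.27) and C1qb (-0.30) lower. The hormone genes Nts (0.39, SE 0.086) and Sst (-0.46, SE 0.13) of enteroendocrine cells differed in opposite directions, and the goblet and Paneth cell ribonuclease gene Ang4 stood at 615, 901, 633 and 599 CPM in males and 930.2, 1325, 1449 and 981 CPM in females (-0.77, SE 0.19) without overlap.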
